A study of Mus musculus with 24 samples.

Results

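Genes of the Wnt pathway were followed across whole lungs of mice given bleomycin or PBS together with an antisense gapmer against Dnm3os or a control gapmer. The set held every gene on the array whose symbol began with Wnt, Fzd, Sfrp, Dkk or Rspo and a number, plus Lrp5, Lrp6, Wif1, Notum, Axin2, Lef1, Tcf7, Lgr5, Lgr6, Znrf3 and Rnf43. It came to 52 of the 20728 named genes: 19 Wnt ligands, 10 Frizzled receptors with the co-receptors Lrp5 and Lrp6, 4 R-spondins, 2 R-spondin receptors, 9 secreted antagonists, 2 transcription factors and 4 feedback genes. All mice were C57BL/6, aged 9 to 12 weeks. Bleomycin breaks DNA, and lungs exposed to it become inflamed and then scarred. Gapmers are antisense oligonucleotides with a DNA core, through which RNase H cuts the paired RNA. Of 6 groups, 3 received bleomycin, with Dnm3os gapmer 1, with Dnm3os gapmer 3 or with the control gapmer (5 arrays each), and 3 received PBS with the same gapmers (3 arrays each). Dnm3os is a long noncoding RNA, and every mouse, controls included, received a gapmer. The sources used here give no dose, no time after bleomycin, no sex and no batch. Samples carry numbers but no animal names in the labels, so a p-value here measures only the spread between samples, which may be technical.

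Wnt ligands are secreted proteins that bind Frizzled receptors and the Lrp5 or Lrp6 co-receptor, which stabilises β-catenin and lets it act with the Tcf and Lef transcription factors in the nucleus. Other Wnt ligands signal through Frizzled receptors without β-catenin and steer cell shape and movement. Secreted antagonists trap the ligands (Sfrp proteins, Wif1) or block the co-receptor (Dkk1, Dkk2 and Dkk4), Rnf43 and Znrf3 remove Frizzled receptors from the cell surface, and R-spondins with their Lgr receptors stop that removal. In the lung the pathway is known for specifying the early lung bud, for maintaining alveolar type 2 cells and for its activity in fibroblasts.

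Values were log2 intensities, on which 1 unit is a doubling, and ran from 5.03 to 18.25 over all features. The 25th percentile of the gene means, 6.11, was taken as the line below which a gene was called dim. Wnt2b, Wnt3, Wnt3a, Wnt8a, Wnt8b, Wnt16, Dkk1 and Dkk4 lay under it, which left 44 members. Levels of different genes are not compared, because probes differ in brightness. The 10 lung markers examined averaged between 14.77 and 15.41 in every array, and none of the 6 groups lacked them. Dnm3os itself was lower with both gapmers in bleomycin lungs (log2 -0.72 with gapmer 1 and -0.50 with gapmer 3, limma adjusted p = 0.000186 and 0.00293). In PBS lungs the corresponding differences, -0.45 and -0.25, did not pass (limma adjusted p = 0.0882 and 0.577). Its mean lay under the dim line in both gapmer PBS groups (5.89 and 6.10, against 6.34 with the control gapmer), so the size of those differences is uncertain. In bleomycin control lungs replicate 3 stood apart: its mean over 7 thymus markers was 8.56, and no other array exceeded 6.99. Without that array 22 members were called for bleomycin, 10 for gapmer 1 and 12 for gapmer 3 in bleomycin lungs, against 25, 11 and 11 with all arrays, and the called differences of Lef1 and Tcf7 are given without it below. In whole lung RNA, fewer cells of a type and less RNA per cell cannot be told apart.

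Promoter sequences are shown for 4 genes that changed with both gapmers in bleomycin lungs, the transcription factors Lef1 and Tcf7, which fell, and the feedback gene Rnf43 and the receptor Fzd7, which rose. Each is the 300-base RefSeq window (GRCm38.p6) around the most upstream annotated start, written 5′ to 3′ on the gene's own strand. The windows are chr3:131110047-131110346 on the plus strand for Lef1, chr11:52282965-52283264 on the minus strand for Tcf7, chr11:87662837-87663136 on the plus strand for Rnf43 and chr1:59481897-59482196 on the plus strand for Fzd7. Capitals mark CTTTG, the core letters of the Tcf and Lef recognition motif, or its reverse complement CAAAG.
Lef1: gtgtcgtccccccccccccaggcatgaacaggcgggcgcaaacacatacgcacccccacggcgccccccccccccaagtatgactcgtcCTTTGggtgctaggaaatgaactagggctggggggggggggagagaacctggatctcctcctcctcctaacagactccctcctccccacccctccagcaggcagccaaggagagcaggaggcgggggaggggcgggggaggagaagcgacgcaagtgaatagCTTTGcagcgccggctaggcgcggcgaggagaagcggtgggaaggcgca
Tcf7: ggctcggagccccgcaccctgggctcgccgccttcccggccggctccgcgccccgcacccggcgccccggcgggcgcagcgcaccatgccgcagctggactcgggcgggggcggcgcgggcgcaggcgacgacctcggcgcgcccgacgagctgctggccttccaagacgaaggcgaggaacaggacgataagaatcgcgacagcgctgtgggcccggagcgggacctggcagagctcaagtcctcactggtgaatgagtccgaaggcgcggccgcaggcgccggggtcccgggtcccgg
Rnf43: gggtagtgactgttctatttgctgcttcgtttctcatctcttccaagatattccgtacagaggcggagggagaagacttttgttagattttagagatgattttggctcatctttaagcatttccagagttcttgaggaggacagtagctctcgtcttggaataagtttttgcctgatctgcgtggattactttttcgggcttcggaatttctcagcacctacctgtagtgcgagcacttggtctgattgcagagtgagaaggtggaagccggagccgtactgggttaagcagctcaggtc
Fzd7: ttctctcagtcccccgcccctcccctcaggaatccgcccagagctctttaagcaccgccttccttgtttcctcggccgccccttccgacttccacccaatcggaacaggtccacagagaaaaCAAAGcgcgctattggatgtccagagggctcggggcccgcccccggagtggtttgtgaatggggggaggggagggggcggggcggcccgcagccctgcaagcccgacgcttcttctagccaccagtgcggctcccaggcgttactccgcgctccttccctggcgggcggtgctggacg
The Lef1 window held 2 matches, the Fzd7 window 1, and the Tcf7 and Rnf43 windows none. Promoter windows were found for 33 of the 52 genes, 41 windows in all. CTTTG, read on both strands, stood in 18 of these 41 (43.9%), against 53.9% of 32851 promoter windows of the same length. The longer form CTTTGAT, which contains CTTTG, stood in 2 of 41 (4.88%), against 3.73% of all windows. A match in such a window is a description of its letters only.

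Under the control gapmer, 5 arrays of bleomycin lungs were set against 3 arrays of PBS lungs to ask what lung injury does to the pathway. Ligands and receptors were called in both directions and secreted antagonists only upwards: Wnt10a and 4 secreted antagonists rose, while Wnt10b, Wnt1, Wnt2, the receptor Fzd4, the agonist Rspo1 and the feedback gene Rnf43 fell. By limma with an adjusted p under 0.05 over all genes, 13 members were higher and 12 lower, 25 of 52 (48.1%). Over all genes 33.8% were called, 14.5% higher and 19.3% lower. The median difference over the 52 members was -0.02, as it was over all genes (-0.02). Of the 25 calls, 16 held with every one of the 24 arrays left out in turn.

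Among the 19 ligands 5 rose and 6 fell (57.9%, against 33.8% of all genes). Wnt10a, a ligand of the β-catenin branch, lay at 9.48, 9.75, 9.28, 9.44 and 8.98 in bleomycin lungs, against 6.25, 6.57 and 6.01 in PBS lungs. All bleomycin arrays stood more than 2 units above all PBS arrays, and the fitted rise was 8.62-fold (log2 3.11, SE 0.26, limma adjusted p = 1.94e-08). Wnt5a, the best known ligand of the β-catenin-independent branch, rose by 0.70 (SE 0.21, limma adjusted p = 0.0122), with bleomycin replicate 5 at 9.42 inside the PBS range of 9.20 to 9.66 and the other 4 above it. Without PBS control replicate 2 its difference was 0.58 and did not pass (limma adjusted p = 0.0729). Wnt6 rose by 0.49 (SE 0.11, limma adjusted p = 0.000845), and its bleomycin arrays did not overlap the PBS arrays. Wnt7b, an epithelial ligand of lung growth, rose by 0.48 (limma adjusted p = 0.0231), with replicate 4 of the bleomycin arrays, at 6.47, below every PBS array. Wnt4 rose by 0.31 (limma adjusted p = 0.0402). The Wnt7b call was lost without bleomycin control replicate 2 or any 1 of the 3 PBS control arrays (0.41 to 0.50, limma adjusted p up to 0.0749). The Wnt4 call was lost without bleomycin control replicate 1, 2, 3 or 4 or PBS control replicate 1 or 3 (0.24 to 0.32, limma adjusted p up to 0.192).

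Wnt10b, a close relative of Wnt10a, moved the opposite way. It lay at 7.12, 7.08, 7.18, 7.12 and 7.45 in bleomycin lungs, against 8.66, 8.14 and 8.66 in PBS lungs. The groups did not overlap, and the fall was by 1.29 on the log2 scale (SE 0.17, limma adjusted p = 4.21e-06). Wnt2, known from mouse work as a mesenchymal ligand that helps specify the lung, fell to 5.97, 5.97, 6.08, 6.28 and 6.18 in bleomycin lungs, against 6.500, 6.56 and 7.01 in PBS lungs (log2 -0.60, limma adjusted p = 0.000119). The groups did not overlap. Wnt2 averaged 6.09 in bleomycin lungs, under the dim line, so the size of its fall is uncertain. Wnt9a fell by 0.54 on the log2 scale (SE 0.11, limma adjusted p = 0.000748) without overlap. Wnt1 lay at 9.03, 9.15, 9.55, 9.12 and 9.95 in bleomycin lungs, against 9.70, 10.68 and 10.82 in PBS lungs (log2 -1.04, limma adjusted p = 0.0045). The groups overlapped, and a second, dim Wnt1 feature at a mean of 5.65 differed by only -0.14. The remaining calls were small falls of 2 dim ligands, Wnt2b (-0.25, limma adjusted p = 0.0467) and Wnt3a (-0.24, limma adjusted p = 0.0317), and Wnt2b was no longer called in 14 of the 24 fits that each left out 1 array (limma adjusted p up to 0.183). Wnt3a was lost without bleomycin control replicate 1 or 2 or PBS control replicate 3 (-0.14 to -0.24, limma adjusted p up to 0.264). The other 8 ligands differed by -0.10 to 0.11 and did not pass.

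**Figure D1:**
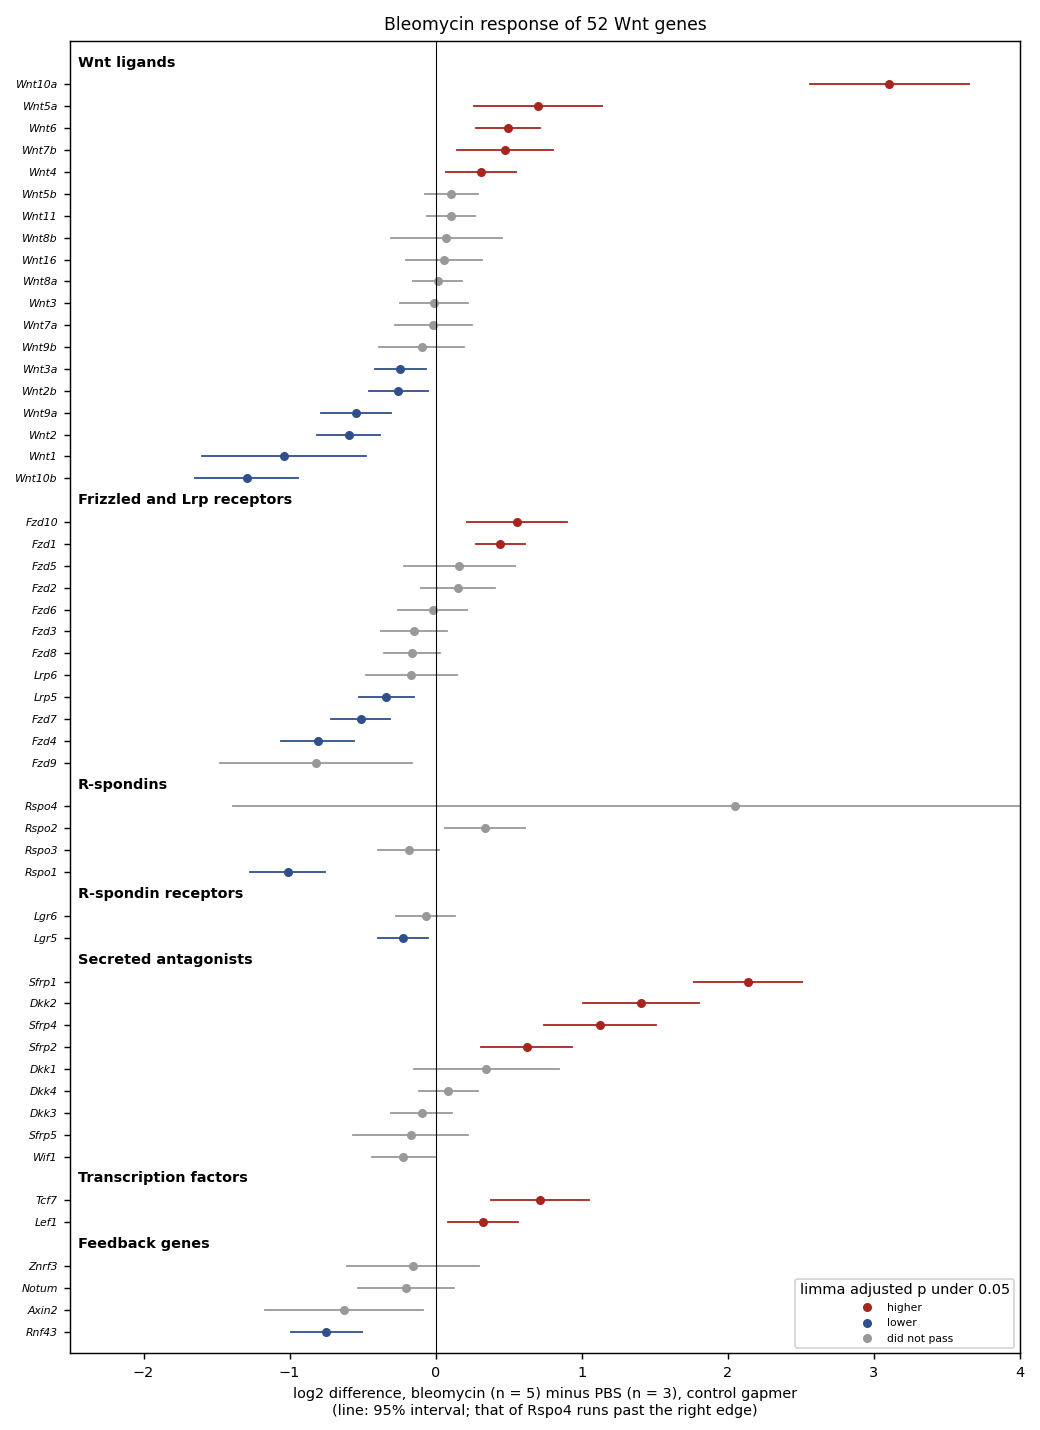
Log2 difference between bleomycin (5 arrays) and PBS (3 arrays) lungs under the control gapmer for the 52 Wnt genes, grouped by role. Points are limma estimates, lines 95% intervals, and colours mark genes higher, lower or not passing at an adjusted p under 0.05. Wnt10a (3.11) and Sfrp1 (2.14) lie farthest right among called genes and Wnt10b (-1.29) farthest left, while the wide line of Rspo4 comes from 1 array at 17.49.

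Frizzled and Lrp receptors were divided in the same way, with 2 of 12 higher and 3 lower (41.7%, against 33.8% of all genes). Fzd4, a receptor strongly expressed in endothelium that also binds the ligand Norrin, lay at 11.32, 11.07, 11.29, 11.18 and 11.41 in bleomycin lungs, against 12.13, 12.10 and 11.96 in PBS lungs. No bleomycin array reached the PBS range, and the fall was by 0.81 on the log2 scale (SE 0.12, limma adjusted p = 1.96e-05). Of 15 endothelial markers 14 fell as well, and their mean lay at 12.17 to 12.34 in bleomycin lungs, against 12.75 to 13.02 in PBS lungs. The part of that shift in the Fzd4 result was not tested. Fzd7 lay at 8.98, 8.75, 8.66, 8.80 and 9.05 in bleomycin lungs, against 9.37, 9.50 and 9.21 in PBS lungs (log2 -0.51, limma adjusted p = 0.000262), while its second feature, with a mean level of 6.39, differed by 0.02. Alveolar markers fell alongside: 9 of 12 of type 1 cells (1 rose), 4 of 12 of type 2 cells and 8 of 12 of resident alveolar fibroblasts. The type 1 mean lay at 13.11 to 13.42 in bleomycin lungs, against 13.68 to 13.89 in PBS lungs, and the alveolar fibroblast mean at 11.37 to 11.74, against 12.09 to 12.34. Their part in the fall of Fzd7 was not tested. Lrp5, a co-receptor, fell by 0.34 on the log2 scale (limma adjusted p = 0.00597). Fzd1 lay higher, at 11.57, 11.82, 11.72, 11.61 and 11.71 in bleomycin lungs, against 11.18, 11.29 and 11.27 in PBS lungs (log2 0.44, limma adjusted p = 0.000185). Fzd10 rose by 0.56 (limma adjusted p = 0.0118). The calls of Fzd10 and Lrp5 both needed PBS control replicate 3, without which the differences were 0.46 and -0.22 (limma adjusted p = 0.0813 and 0.083). Fzd9 differed by -0.82 and just missed the threshold (limma adjusted p = 0.0513). It was called with 5 of 10 alternatives, with limma adjusted p over all its alternatives between 0.00894 and 0.25, and its bleomycin mean of 6.00 was under the dim line. Skeletal muscle markers were lower in the same lungs: 5 of 12 fell, and their mean lay at 9.49 to 9.69 in bleomycin lungs, against 11.08 to 12.29 in PBS lungs. Over all 24 arrays, the 4 with Fzd9 at 7.16 to 7.32 were also the 4 with the highest muscle mean, 12.06 to 12.29. The part of muscle in the Fzd9 difference was not tested. The other 6 receptors, among them Lrp6, differed by -0.17 to 0.16 without passing. Second features of Lrp6 and Fzd2, with mean levels of 8.10 and 7.20, went the other way. They differed by 0.47 and -0.47, against -0.17 and 0.15 for the features used.

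Of the 4 R-spondins only Rspo1 was called. It lay at 11.67, 11.60, 11.76, 11.67 and 12.01 in bleomycin lungs, against 12.71, 12.75 and 12.81 in PBS lungs. The PBS arrays were tightly grouped above all bleomycin arrays, and the fall was 2.02-fold (log2 -1.01, SE 0.12, limma adjusted p = 1.91e-06). Rspo1 is also on a list of 9 mesothelial markers, of which 7 fell and 2 rose, so it is itself among the 7 and enters the list mean. The mean of that list was 10.44 to 10.61 in bleomycin lungs, against 10.93 to 11.14 in PBS lungs, and its part in the fall was not tested. Rspo2 and Rspo3 differed by 0.34 and -0.18 without passing (limma adjusted p = 0.0503 and 0.169). Rspo4 read 17.49 in bleomycin replicate 1 and 5.75 to 5.90 in the other 4, against 6.01 to 6.24 in PBS lungs. Its difference of 2.05 (limma adjusted p = 0.38) therefore came from 1 array, without which it was -0.28 (limma adjusted p = 0.0292) at a dim mean level of 5.92. Lgr5, an R-spondin receptor and stem cell marker, lay at 6.43, 6.59, 6.43, 6.45 and 6.53 in bleomycin lungs, against 6.57, 6.63 and 6.92 in PBS lungs. Its groups overlapped, and the difference of -0.22 (limma adjusted p = 0.0398) was -0.12 without PBS control replicate 3 (limma adjusted p = 0.339), and was not called either without bleomycin control replicate 1, 3 or 4 (-0.21 each). Lgr6, a related receptor, lay at 6.82, 6.74, 6.69, 7.000 and 6.99 in bleomycin lungs, against 6.88, 7.14 and 6.72 in PBS lungs, and did not pass (limma adjusted p = 0.64).

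Secreted antagonists were called in 1 direction only: 4 of 9 rose and none fell (44.4% called, against 33.8% of all genes), so the direction rests on 4 calls. An unadjusted p under 0.05 was reached by 5 of the 9 antagonists, as it was by 41.7% of all genes. These were the 4 called and Wif1, which went down (log2 -0.22, limma unadjusted p = 0.0467). Sfrp1, a decoy receptor that binds Wnt ligands, lay at 10.09, 10.39, 9.93, 10.34 and 9.80 in bleomycin lungs, against 7.89, 8.02 and 7.995 in PBS lungs. The 2 groups lay far apart, a 4.41-fold rise (log2 2.14, SE 0.18, limma adjusted p = 1.65e-08). Dkk2, which binds Lrp5 and Lrp6, lay at 7.75, 7.70, 7.59, 7.78 and 7.57 in bleomycin lungs, against 6.20, 6.52 and 6.09 in PBS lungs, a 2.65-fold rise (log2 1.41, SE 0.19, limma adjusted p = 6.16e-06). Sfrp4 lay at 9.08, 9.16, 8.69, 9.03 and 8.67 in bleomycin lungs, against 7.90, 7.76 and 7.74 in PBS lungs, a 2.18-fold rise (log2 1.12, SE 0.18, limma adjusted p = 5.67e-05). Neither Dkk2 nor Sfrp4 overlapped between the groups. Sfrp2 rose by 0.62 (SE 0.15, limma adjusted p = 0.00228), also without overlap. Wif1, which binds Wnt ligands directly, lay at 9.05, 8.59, 8.40, 8.60 and 8.81 in bleomycin lungs, against 8.99, 8.88 and 8.86 in PBS lungs, and did not pass (log2 -0.22, SE 0.10, limma adjusted p = 0.114). Dkk1, Dkk3, Dkk4 and Sfrp5 differed by 0.35, -0.10, 0.09 and -0.17, none of which passed. The Dkk1 value came from bleomycin replicate 2, at 7.23, without which it was 0.04. Beside these rises, 13 of 16 markers of activated fibroblasts and myofibroblasts rose, and their mean lay at 12.31 to 12.65 in bleomycin lungs, against 11.08 to 11.17 in PBS lungs. The part of that shift in the antagonist results was not tested.

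Both transcription factors rose. Tcf7, which encodes TCF1 and is abundant in T cells, lay at 9.29, 9.44, 10.15, 9.30 and 9.05 in bleomycin lungs, against 8.64, 8.79 and 8.77 in PBS lungs. All bleomycin arrays stood above all PBS arrays, replicate 3 by the widest margin, and the rise was by 0.71 (SE 0.16, limma adjusted p = 0.00133), or 0.54 without replicate 3 (limma adjusted p = 0.000563). Lef1, its relative, lay at 10.49, 10.71, 10.90, 10.44 and 10.43 in bleomycin lungs, against 10.32, 10.23 and 10.26 in PBS lungs. The groups did not overlap, but the rise was smaller, at 0.32 (SE 0.12, limma adjusted p = 0.0335), and was not called without bleomycin control replicate 3 (0.25, limma adjusted p = 0.0904). Leaving out bleomycin control replicate 2 or any 1 of the 3 PBS control arrays also ended the Lef1 call, with differences between 0.30 and 0.35, and so did fitting only the groups compared (limma adjusted p = 0.057). T cell markers moved in the same direction: 17 of 19 rose, and their mean lay at 9.30 to 9.95 in bleomycin lungs, against 8.68 to 8.88 in PBS lungs.

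Of the 4 feedback genes, whose transcription β-catenin is known to raise in many tissues, 1 fell and none rose. Rnf43 lay at 9.86, 9.71, 10.08, 9.79 and 10.27 in bleomycin lungs, against 10.73, 10.61 and 10.72 in PBS lungs. Every bleomycin array lay below every PBS array, a fall by 0.75 on the log2 scale (SE 0.12, limma adjusted p = 2.98e-05). The part in it of the alveolar markers, which fell as described beside Fzd7, was not tested. Axin2, a scaffold of the β-catenin destruction complex, lay at 6.17, 6.49, 6.66, 6.18 and 6.59 in bleomycin lungs, against 6.61, 6.89 and 7.64 in PBS lungs. Only replicate 3 of the bleomycin arrays, at 6.66, reached the lowest PBS array, yet the spread within groups was wide and the difference did not pass (log2 -0.63, SE 0.26, limma adjusted p = 0.07). Part of that spread followed the label numbers, as Axin2 rose from replicate 1 to 2 to 3 in all 6 groups. With the label number fitted as a replicate block Axin2 was called (log2 -0.695, limma adjusted p = 0.00102). What the numbers stand for is not given. Notum, an enzyme that inactivates Wnt ligands, lay at 10.35, 10.45, 10.65, 10.37 and 10.68 in bleomycin lungs, against 10.39, 10.92 and 10.79 in PBS lungs (log2 -0.20, limma adjusted p = 0.362). Znrf3, the relative of Rnf43, lay at 7.62, 6.82, 6.83, 6.87 and 7.05 in bleomycin lungs, against 7.42, 7.10 and 7.05 in PBS lungs (log2 -0.16, limma adjusted p = 0.64). Neither of the last pair passed, and both overlapped between groups.

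A wider list of 74 other pathway genes, chosen with earlier results of these data known, had 12 genes higher and 16 lower with bleomycin (37.8%, against the 33.8% of all genes). The largest rises were in genes also known from matrix and growth responses, Ccn4 (1.32, SE 0.20), Cthrc1 (1.23, SE 0.20) and Myc (1.20, SE 0.13), followed by the cyclin gene Ccnd1 (0.87, SE 0.22). The largest falls were in Prickle1, a planar polarity gene (-1.65, SE 0.19), Tspan12, a partner of Fzd4 in Norrin signalling (-1.31, SE 0.14), Shisa2 (-0.93, SE 0.15) and Lrp4 (-0.85, SE 0.16). All 8 passed, with limma adjusted p between 3.05e-07 and 0.00343.

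Each Dnm3os gapmer was then compared with the control gapmer in bleomycin lungs (5 arrays each), to ask what targeting the noncoding RNA does to the injured lung. With either gapmer Lef1, Tcf7, Wnt10a and antagonists including Sfrp1 fell, while Rnf43 and Fzd7 rose. Gapmer 1 gave 3 higher and 8 lower members, 11 of 52 (21.2%), where 10.5% of all genes were called (5.47% higher, 5.08% lower). Gapmer 3 also gave 3 higher and 8 lower, where 13.2% of all genes were called (5.63% higher, 7.52% lower). The medians over the members, 0.02 and -0.05, lay close to those over all genes (0.02 and 0.01). Both comparisons share the 5 control arrays, so their values are set side by side and not correlated. The same 5 arrays are the bleomycin side of the comparison with PBS under the control gapmer. An error in them moves the bleomycin and the gapmer differences in opposite directions, so a gapmer difference opposite to that of bleomycin is partly built in. There were 9 members called with both gapmers and 13 with either. The shares of all genes called with both or with either were not computed, so these counts only list the members. Of the 9, 7 held for both gapmers with any 1 array left out: Lef1, Tcf7, Wnt10a, Sfrp1, Fzd1, Fzd7 and Rnf43.

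**Figure D2:**
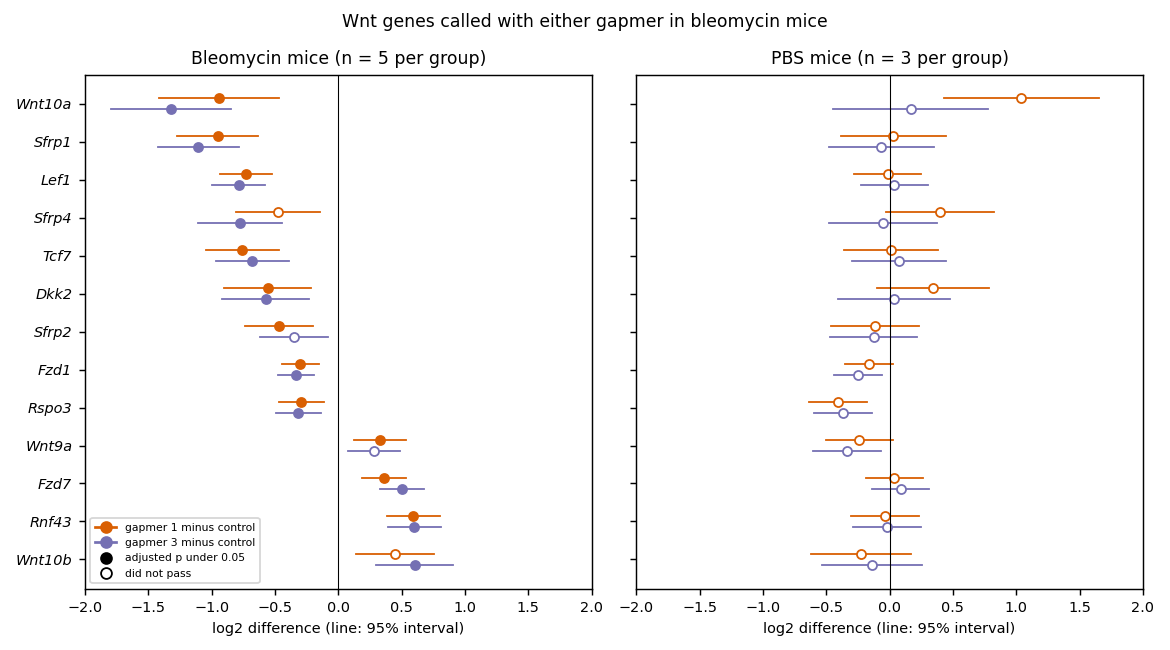
Log2 difference between gapmer and control lungs for the 13 Wnt genes called with either gapmer in bleomycin lungs (left, 5 arrays per group), with the same genes in PBS lungs (right, 3 arrays per group). Points are limma estimates, lines 95% intervals, and filled points passed an adjusted p under 0.05. In bleomycin lungs both gapmers lie on the same side of 0 for each gene, from Wnt10a (-0.94 and -1.32) to Wnt10b (0.45 and 0.60), and no point is filled in PBS lungs.

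Both transcription factors fell with both gapmers. Lef1 lay at 9.68, 9.83, 10.29, 9.77 and 9.77 with gapmer 1 and at 9.88, 9.79, 9.69, 9.80 and 9.88 with gapmer 3, against 10.49, 10.71, 10.90, 10.44 and 10.43 with the control gapmer. All 10 gapmer arrays lay below all control arrays, and the Lef1 log2 difference was -0.73 for gapmer 1 (SE 0.10, limma adjusted p = 8.22e-05), while gapmer 3 gave -0.79 (SE 0.10, limma adjusted p = 2.32e-05). A second Lef1 feature, with a mean level of 8.93, fell by 0.73 and 0.72. Tcf7 lay at 8.73, 8.61, 8.89, 8.73 and 8.48 with gapmer 1 and at 8.76, 8.64, 8.60, 8.83 and 9.02 with gapmer 3, against 9.29, 9.44, 10.15, 9.30 and 9.05 with the control gapmer. Its gapmer arrays too were all below the control arrays, with log2 differences of -0.76 (SE 0.14, limma adjusted p = 0.00129) and -0.68 (SE 0.14, limma adjusted p = 0.00215). Without bleomycin control replicate 3, the array high in thymus markers, Lef1 still fell by 0.65 and 0.71 (limma adjusted p = 0.000275 and 6.9e-05) and Tcf7 by 0.58 and 0.50 (limma adjusted p = 0.000692 and 0.00147).

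T cell markers moved alongside: 16 of 19 fell with each gapmer. Their mean lay at 8.77 to 8.99 with gapmer 1 and 8.64 to 8.90 with gapmer 3, against 9.30 to 9.95 with the control gapmer, and at 8.68 to 9.04 in PBS lungs. None of the 19 was dim. Tcf7 in gapmer bleomycin lungs overlapped its level in PBS lungs, as the T cell mean did. For Lef1, 9 of the 10 gapmer bleomycin arrays lay below all 9 PBS arrays, and gapmer 1 replicate 3, at 10.29, lay among them. How far T cell content enters the changes of Lef1 and Tcf7 was not tested.

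**Figure D3:**
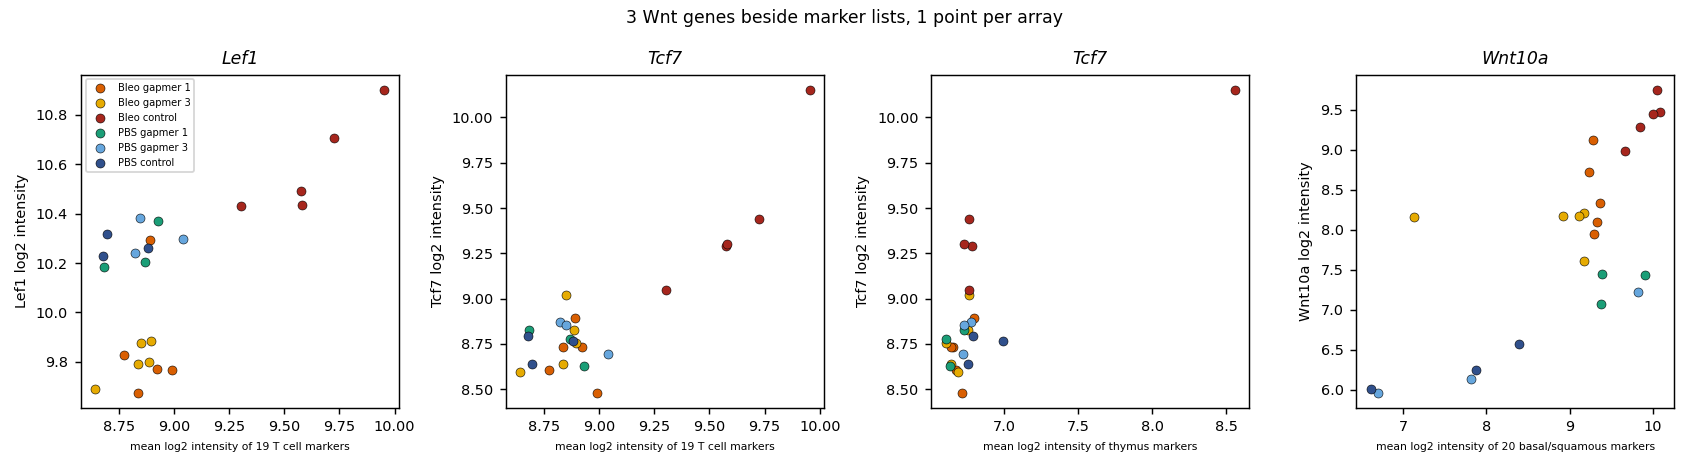
Log2 intensity of Lef1, Tcf7 and Wnt10a in each of the 24 arrays (points, coloured by group) against the mean log2 intensity of 19 T cell, 7 thymus or 20 basal and squamous epithelial markers. Bleomycin control arrays (9.30 to 9.95 on the T cell axis) stand at the upper right, 9 of 10 bleomycin gapmer arrays lie lower in Lef1 than PBS arrays of similar T cell mean, and 1 bleomycin control array stands apart at 8.56 on the thymus axis.

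Ligands were called 1 up and 1 down of 19 with each gapmer (10.5%, against 10.5% and 13.2% of all genes with gapmers 1 and 3). Wnt10a lay at 8.33, 8.09, 7.95, 9.13 and 8.72 with gapmer 1 and 8.16, 8.21, 7.61, 8.17 and 8.17 with gapmer 3, against 9.48, 9.75, 9.28, 9.44 and 8.98 with the control gapmer. Gapmer 3 arrays were all below the control arrays, and of the gapmer 1 arrays only replicate 4 overlapped them. Wnt10a fell 1.92-fold with gapmer 1 (log2 -0.94, SE 0.23, limma adjusted p = 0.01) and 2.5-fold with gapmer 3 (log2 -1.32, SE 0.23, limma adjusted p = 0.000487). Wnt10b lay at 7.37, 7.94, 7.91, 7.12 and 7.84 with gapmer 1 and 7.63, 7.72, 8.04, 7.74 and 7.83 with gapmer 3, against 7.12, 7.08, 7.18, 7.12 and 7.45 with the control gapmer. Its rise passed with gapmer 3 (log2 0.60, SE 0.15, limma adjusted p = 0.00819), where the groups did not overlap, but not with gapmer 1 (log2 0.45, SE 0.15, limma adjusted p = 0.0551). Wnt9a lay at 9.46, 9.58, 9.97, 9.48 and 9.95 with gapmer 1 and 9.51, 9.66, 9.65, 9.71 and 9.69 with gapmer 3, against 9.20, 9.34, 9.48, 9.26 and 9.54 with the control gapmer. It was called with gapmer 1 (log2 0.33, SE 0.10, limma adjusted p = 0.0353) and not with gapmer 3 (log2 0.28, SE 0.10, limma adjusted p = 0.0636). The gapmer 1 call was lost without bleomycin control replicate 1, 2 or 4 or gapmer 1 replicate 3 or 5 (log2 0.26 to 0.32). Wnt5a, raised by bleomycin, differed by -0.15 and -0.03 and did not pass with either gapmer, nor did Wnt1 (0.52 and 0.38) or Wnt2 (0.04 and -0.01).

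Basal and squamous epithelial markers also differed between these groups. Of 20, 16 rose with bleomycin, and 5 fell with gapmer 1 and 7 with gapmer 3, led by Sprr2f (-4.47 and -4.46) and Krt17 (-2.98 and -3.13). With gapmer 1, 8 of the 20 differed upwards and the median of the list was -0.21, and with gapmer 3, 1 did and the median was -0.96. The mean of the list lay at 9.23 to 9.36 with gapmer 1 and 7.13 to 9.17 with gapmer 3, against 9.67 to 10.08 in bleomycin control lungs, and at 6.61 to 8.39 in PBS control lungs. The 7.13 was gapmer 3 replicate 1 alone, where Wnt10a lay at 8.16, and the others lay at 8.92 to 9.17. In gapmer 1 PBS lungs, with Wnt10a at 7.07 to 7.44, the mean was 9.38 to 9.90. Ivl lay under the dim line in all groups, and the part of these cells in the Wnt10a result was not tested.

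Antagonists fell in 3 of 9 cases with each gapmer, and none rose (33.3%, against 10.5% and 13.2% of all genes with gapmers 1 and 3). Sfrp1 lay at 9.35, 8.80, 8.79, 9.83 and 9.02 with gapmer 1 and 9.18, 9.03, 8.70, 9.08 and 9.04 with gapmer 3, against 10.09, 10.39, 9.93, 10.34 and 9.80 with the control gapmer. Only gapmer 1 replicate 4 overlapped the control arrays. Sfrp1 fell 1.94-fold (log2 -0.95, SE 0.15, limma adjusted p = 0.000471) and 2.15-fold (log2 -1.10, SE 0.15, limma adjusted p = 6.18e-05). Dkk2 lay at 7.34, 6.84, 6.74, 7.91 and 6.76 with gapmer 1 and 7.08, 7.25, 6.99, 7.04 and 7.15 with gapmer 3, against 7.75, 7.70, 7.59, 7.78 and 7.57 with the control gapmer. Gapmer 1 replicate 4, at 7.91, lay above every control array, whereas all gapmer 3 arrays lay below them. The Dkk2 differences of -0.56 (limma adjusted p = 0.0326) and -0.57 (limma adjusted p = 0.0235) were no longer called in 7 and 4 of the 24 fits with 1 array left out, with limma adjusted p up to 0.106 and 0.0598. For gapmer 1 these were bleomycin control replicates 1, 2, 3 and 4 and gapmer 1 replicates 2, 3 and 5 (-0.46 to -0.58), and for gapmer 3 bleomycin control replicates 1, 2 and 4 and gapmer 3 replicate 3 (-0.55 to -0.57). All of them belong to the groups compared, 5 arrays each, and only those arrays enter the difference itself.

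Sfrp4 lay at 8.39, 8.06, 8.27, 9.02 and 8.51 with gapmer 1 and 7.98, 8.28, 8.18, 7.999 and 8.31 with gapmer 3, against 9.08, 9.16, 8.69, 9.03 and 8.67 with the control gapmer. It was called with gapmer 3 (log2 -0.77, SE 0.16, limma adjusted p = 0.00231) and not with gapmer 1 (log2 -0.47, SE 0.16, limma adjusted p = 0.0608). Sfrp2 lay at 10.31, 9.89, 9.98, 10.61 and 9.82 with gapmer 1 and 10.61, 10.18, 10.01, 10.19 and 10.21 with gapmer 3, against 10.63, 10.68, 10.37, 10.75 and 10.51 with the control gapmer. It was called with gapmer 1 (log2 -0.47, SE 0.13, limma adjusted p = 0.0218) and not with gapmer 3 (log2 -0.35, SE 0.13, limma adjusted p = 0.0773), and the gapmer 1 call was lost without bleomycin control replicate 2 or 4 or gapmer 1 replicate 2, 3 or 5 (-0.39 to -0.44, limma adjusted p up to 0.0715). In gapmer 1 lungs replicate 4 was the highest of its group for Sfrp1, Sfrp2, Sfrp4, Dkk2 and Wnt10a, and it also had the highest myofibroblast marker mean of that group, 12.37, against 11.66 to 11.97 in the other 4. With each gapmer 11 of 16 myofibroblast markers fell, and their part in the antagonist results was not tested. Wif1 lay at 8.83, 8.63, 8.61, 8.60 and 8.53 with gapmer 1 and 8.60, 8.79, 8.88, 8.74 and 8.81 with gapmer 3, against 9.05, 8.59, 8.40, 8.60 and 8.81 with the control gapmer, and did not pass (log2 -0.05 and 0.07).

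Among receptors 1 rose and 1 fell of 12 with each gapmer (16.7%, against 10.5% and 13.2% of all genes with gapmers 1 and 3). Fzd7 lay at 9.40, 9.27, 9.19, 9.07 and 9.14 with gapmer 1 and 9.30, 9.32, 9.16, 9.39 and 9.58 with gapmer 3, against 8.98, 8.75, 8.66, 8.80 and 9.05 with the control gapmer. All gapmer arrays lay above all control arrays, with log2 differences of 0.36 (SE 0.08, limma adjusted p = 0.00755) and 0.50 (SE 0.08, limma adjusted p = 0.000377). Averaged with its second feature, Fzd7 did not pass with gapmer 1 (0.22, limma adjusted p = 0.0548). Alveolar markers rose alongside: 9 of 12 of type 1 cells with each gapmer, 7 and 9 of 12 of type 2 cells and 4 and 6 of 12 of alveolar fibroblasts with gapmers 1 and 3. The type 1 mean lay at 13.475 to 13.87 with gapmer 1 and 13.69 to 13.80 with gapmer 3, against 13.11 to 13.42 with the control gapmer. The type 2 mean lay at 14.55 to 14.98 and 14.83 to 14.97, against 14.28 to 14.55. Gapmer 1 replicate 4, the lowest of its group in Fzd7, was also the lowest of it in all 3 marker means, and their part in the rise of Fzd7 was not tested. Fzd1 lay at 11.27, 11.29, 11.33, 11.53 and 11.53 with gapmer 1 and 11.28, 11.38, 11.23, 11.44 and 11.45 with gapmer 3, against 11.57, 11.82, 11.72, 11.61 and 11.71 with the control gapmer. Its gapmer arrays all lay below the control arrays, and the falls were by 0.30 and 0.33 on the log2 scale (limma adjusted p = 0.00784 and 0.00271). Fzd4, lowered by bleomycin, differed by 0.17 and 0.23 and did not pass (limma adjusted p = 0.36 and 0.167).

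Rspo3, an R-spondin made by endothelial and mesenchymal cells, was called with both gapmers and was the only such member not called for bleomycin (-0.18, 95% interval -0.39 to 0.02). It lay at 7.40, 7.24, 7.40, 7.41 and 7.64 with gapmer 1 and 7.47, 7.36, 7.20, 7.501 and 7.43 with gapmer 3, against 7.74, 7.83, 7.64, 7.65 and 7.69 with the control gapmer. The differences were -0.29 (limma adjusted p = 0.0319) and -0.32 (limma adjusted p = 0.0168), and all gapmer arrays lay below all control arrays, gapmer 1 replicate 5 only just. These calls were lost without bleomycin control replicate 2 (-0.26 and -0.29, limma adjusted p = 0.102 and 0.0565), and the gapmer 1 call also without bleomycin control replicate 1 or gapmer 1 replicate 1, 2 or 3, the gapmer 3 call without gapmer 3 replicate 3. Similar differences stood in PBS lungs, -0.41 and -0.37, which did not pass (limma adjusted p = 0.0678 and 0.319). Lgr5 lay at 6.38, 6.59, 6.60, 6.54 and 6.68 with gapmer 1 and 6.44, 6.34, 6.51, 6.34 and 6.49 with gapmer 3, and Lgr6 at 6.82, 6.75, 6.75, 6.75 and 6.57 and 6.92, 6.58, 6.84, 6.78 and 6.87. Neither receptor passed with either gapmer in bleomycin lungs.

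Rnf43, lowered by bleomycin, was higher with both gapmers. It lay at 10.59, 10.59, 10.65, 10.26 and 10.58 with gapmer 1 and 10.46, 10.49, 10.39, 10.71 and 10.65 with gapmer 3, against 9.86, 9.71, 10.08, 9.79 and 10.27 with the control gapmer. All gapmer arrays but gapmer 1 replicate 4, at 10.26, lay above the highest control array, at 10.27. The rises were by 0.59 (SE 0.10, limma adjusted p = 0.000657) and 0.60 (SE 0.10, limma adjusted p = 0.00037). Alveolar markers rose in the same comparisons, as given beside Fzd7, and gapmer 1 replicate 4 was the lowest of its group in Rnf43 as in those markers. Their part in the rise of Rnf43 was not tested. Axin2 lay at 6.27, 6.51, 6.71, 6.15 and 7.09 with gapmer 1 and 6.26, 6.68, 6.98, 7.04 and 7.15 with gapmer 3, against 6.17, 6.49, 6.66, 6.18 and 6.59 with the control gapmer, and did not pass (log2 0.13 and 0.40, limma adjusted p = 0.809 and 0.283). The gapmer 3 difference was called with the replicate block (log2 0.40, limma adjusted p = 0.0296) and with array weights (log2 0.54, limma adjusted p = 0.031). The gapmer 1 difference was called with no alternative. Notum lay at 10.33, 10.91, 10.64, 10.32 and 10.53 and 10.17, 10.73, 10.73, 10.55 and 10.61 with gapmers 1 and 3, and Znrf3 at 7.31, 7.13, 7.12, 6.73 and 6.74 and 7.10, 6.92, 7.10, 6.89 and 6.75. All 4 differences of these last genes lay between -0.08 and 0.06, and none passed.

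**Figure D4:**
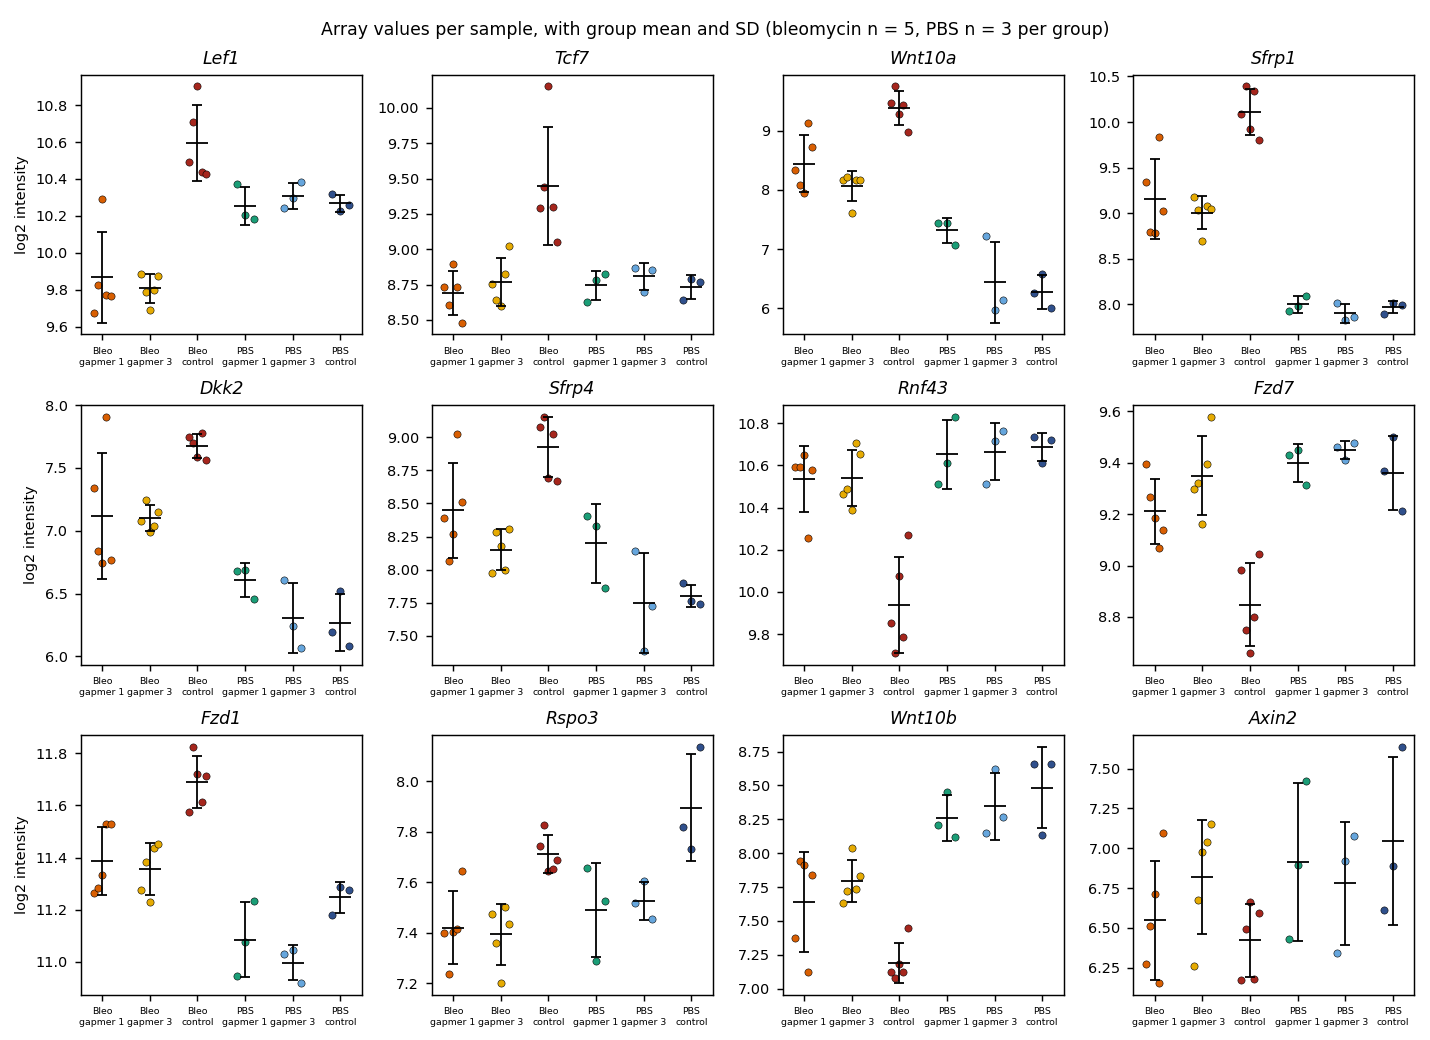
Log2 intensity in every array (points) of 12 Wnt genes, with group mean and SD (bars), for bleomycin (5 arrays a group) and PBS (3 arrays a group) lungs under gapmer 1, gapmer 3 or the control gapmer. In Lef1 the bleomycin control arrays lie above all others, in Wnt10a and in Sfrp1 the bleomycin arrays of each gapmer lie above the PBS arrays of that gapmer, and the Axin2 arrays overlap between each pair of groups compared.

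Of the 74 other pathway genes, 7 rose and 3 fell with gapmer 1 (13.5%, against 10.5% of all genes) and 7 rose and 4 fell with gapmer 3 (14.9%, against 13.2%). Cthrc1 fell by 0.78 and 0.87, Myc by 0.76 and 0.83 and Shisa3, which was dim, by 0.60 and 0.73 with gapmers 1 and 3. Genes higher with both were the co-repressor Tle2 (0.55 and 0.47), the transcription factor Sp5 (0.52 and 0.43), Daam2 (0.44 and 0.41), the feedback inhibitor Nkd1 (0.39 and 0.42) and the β-catenin gene Ctnnb1 (0.19 and 0.22). Lrp4 (0.46) and Shisa2 (0.43) rose with gapmer 1. With gapmer 3 Ccn4 fell by 0.56, and Daam1 (0.45) and Tspan12 (0.43) rose. These calls had limma adjusted p of at most 0.0432.

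Gapmer 3 was compared with gapmer 1 in bleomycin lungs without the shared controls. No member passed, and none had an unadjusted p under 0.05 by limma. Over all genes 0% were called, and 838 (4.04%) had an unadjusted p under 0.05. The 95% intervals of the difference were -0.27 to 0.15 for Lef1, -0.21 to 0.37 for Tcf7, -0.20 to 0.22 for Rnf43, -0.47 to 0.17 for Sfrp1, -0.85 to 0.09 for Wnt10a and -0.63 to 0.03 for Sfrp4. The interval was widest for Wnt10a among these 6 genes, and a p that misses the threshold does not show that the gapmers act alike.

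In PBS lungs (3 arrays a group) the gapmers changed few members. Gapmer 1 gave 1 higher and 1 lower (3.8%, against 1.11% of all genes, 0.444% higher and 0.666% lower). Lgr5 lay at 6.33, 6.22 and 6.28 with gapmer 1 and 6.12, 6.37 and 6.31 with gapmer 3, against 6.57, 6.63 and 6.92 with the control gapmer. All gapmer arrays were below all control arrays, with differences of -0.43 with gapmer 1 (SE 0.09, limma adjusted p = 0.0307) and -0.44 with gapmer 3, which did not pass (limma adjusted p = 0.112). Fzd10 lay at 6.80, 7.41 and 6.95 with gapmer 1 and 7.09, 6.27 and 6.28 with gapmer 3, against 6.25, 6.55 and 6.10 with the control gapmer. The gapmer 1 rise of 0.75 (SE 0.19, limma adjusted p = 0.0492) was lost in 18 of the 24 fits with 1 array left out, with limma adjusted p up to 0.209, and the Lgr5 fall without PBS control replicate 1 or 3 or any 1 of the 3 gapmer 1 PBS arrays (-0.32 to -0.50, limma adjusted p up to 0.158). Basal and squamous markers averaged 9.38 to 9.90 in gapmer 1 PBS lungs and 6.70 to 9.82 in gapmer 3 PBS lungs, against 6.61 to 8.39 in PBS control lungs, and gapmer 3 replicate 1 had the highest value of its group for both this mean and Fzd10. Their part in the Fzd10 result was not tested. Wnt10a also lay higher with gapmer 1, at 7.44, 7.44 and 7.07, against 6.25, 6.57 and 6.01 with the control gapmer, without passing (log2 1.04, SE 0.29, limma adjusted p = 0.0738). In this comparison every pair of same-numbered arrays correlated above 0.1. Wnt10a was called with the replicate block (log2 1.04, limma adjusted p = 0.0465), which was fitted over all 6 groups and not for this pair alone. It was also called with array weights (1.02, limma adjusted p = 0.0338) and with RNA integrity as a covariate (1.18, limma adjusted p = 0.0315), and limma adjusted p over all its alternatives ran from 0.0247 to 0.28. The basal and squamous mean was higher in these gapmer 1 arrays too, and its part in the Wnt10a difference was not tested. With gapmer 3 no member passed by limma (0.0338% of all genes did, 0.00965% higher and 0.0241% lower), and 5 of 52 members (9.6%) had an unadjusted p under 0.05, as did 9.76% of all genes.

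The difference between the bleomycin response with a gapmer and with the control gapmer was tested as an interaction. With gapmer 1, 3 members had a positive and 6 a negative difference (17.3%, against 7.7% of all genes, 4.97% positive and 2.74% negative). With gapmer 3 there were 2 positive and 3 negative (9.6%, against 3.09%, 1.45% positive and 1.64% negative). RNA integrity as a covariate ended all of the gapmer 3 calls but that of Lef1: Wnt10a (-1.25), Sfrp1 (-0.88), Rnf43 (0.58) and Wnt9a (0.57) then had limma adjusted p between 0.0644 and 0.0915. Lef1 was -0.71 (SE 0.16, limma adjusted p = 0.0131) and -0.82 (SE 0.16, limma adjusted p = 0.00952), and held in both cases with any 1 array left out. Wnt10a was -1.98 (limma adjusted p = 0.00459) and -1.49 (limma adjusted p = 0.0311), and the value without gapmer 3 PBS replicate 1 was -1.09 for gapmer 3 (limma adjusted p = 0.108). With gapmer 1, Wnt10a differed from control by -0.94 in bleomycin lungs and by 1.04 in PBS lungs, and both enter its value. Sfrp1 was -0.98 and -1.04, Rnf43 0.63 and 0.62, and Wnt9a 0.57 and 0.62, with limma adjusted p between 0.0229 and 0.0393. Tcf7 passed with gapmer 1 (-0.77, limma adjusted p = 0.0408) and not with gapmer 3 (-0.75, limma adjusted p = 0.0681), as did Lgr5 (0.50 and 0.38), Sfrp4 (-0.87 and -0.72) and Dkk2 (-0.90 and -0.61). With gapmer 1, Lgr5 differed from control by 0.07 in bleomycin lungs and by -0.43 in PBS lungs. In the same order Sfrp4 differed by -0.47 and 0.40, Dkk2 by -0.56 and 0.34 and Wnt9a by 0.33 and -0.24. Without bleomycin control replicate 3, high in thymus markers, Lef1 was -0.63 and -0.75 (limma adjusted p = 0.0199 and 0.0125) and Tcf7 with gapmer 1 was -0.59 (limma adjusted p = 0.0251). Apart from Lef1 with either gapmer and Wnt10a and Lgr5 with gapmer 1, each of these calls was lost with at least 1 array left out, at limma adjusted p up to 0.127.

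The bleomycin response was also tested within each gapmer, a comparison added after the values above were known. Under gapmer 1, 5 members were higher and 3 lower in bleomycin than in PBS lungs (15.4%, against 9.48% of all genes, 6.35% higher and 3.13% lower), and under gapmer 3, 4 were higher and 7 lower (21.2%, against 13.9%, 7.02% higher and 6.85% lower). Sfrp1 still rose, by 1.16 and 1.10 under gapmers 1 and 3 (SE 0.18, limma adjusted p = 0.000248 and 0.000205), and Wnt10a by 1.13 and 1.62 (limma adjusted p = 0.00828 and 0.000208). Sfrp1 lay at 7.92, 7.98 and 8.10 in gapmer 1 PBS lungs and 8.02, 7.83 and 7.86 in gapmer 3 PBS lungs, far below the bleomycin values given above. Rspo1 lay at 11.76, 12.18, 12.25, 11.53 and 12.03 in bleomycin and 12.42, 12.42 and 12.45 in PBS lungs with gapmer 1, and at 11.92, 11.88, 11.99, 11.80 and 11.86 in bleomycin and 12.29, 12.61 and 12.57 in PBS lungs with gapmer 3. It fell in both (log2 -0.48 and -0.60, limma adjusted p = 0.016 and 0.00187). Fzd1 rose by 0.30 and 0.36, and Wnt10b fell by 0.62 and 0.55, on the log2 scale. RNA integrity averaged 9.56 in bleomycin and 9.03 in PBS lungs with gapmer 1, and as a covariate it ended the gapmer 1 calls of Rspo1 (-0.365, limma adjusted p = 0.113), Fzd1 (0.24, limma adjusted p = 0.125), Wnt10b (-0.50, limma adjusted p = 0.13) and Wnt10a (0.85, limma adjusted p = 0.0669). Fitting only the groups compared also ended the gapmer 1 calls of Rspo1, Fzd1 and Wnt10b (limma adjusted p = 0.145, 0.152 and 0.129).

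Lef1 was lower in bleomycin than in PBS lungs under both gapmers. It lay at 9.68, 9.83, 10.29, 9.77 and 9.77 in bleomycin and 10.37, 10.21 and 10.18 in PBS lungs with gapmer 1, and at 9.88, 9.79, 9.69, 9.80 and 9.88 in bleomycin and 10.24, 10.30 and 10.38 in PBS lungs with gapmer 3. Gapmer 3 bleomycin arrays were all below the PBS arrays, and of the gapmer 1 arrays only replicate 3 overlapped them. Bleomycin lowered Lef1 by 0.39 under gapmer 1 (limma adjusted p = 0.0359) and by 0.50 under gapmer 3 (limma adjusted p = 0.00464) on the log2 scale, against a difference of 0.32 under the control gapmer (limma adjusted p = 0.0335) that was not called without bleomycin control replicate 3 (0.25, limma adjusted p = 0.0904) or without any 1 of the 4 other arrays named above. The gapmer 3 fall held with any 1 array left out. The gapmer 1 fall was lost without gapmer 1 bleomycin replicate 1, 2, 4 or 5 or any of the 3 gapmer 1 PBS arrays (log2 -0.33 to -0.42, limma adjusted p up to 0.161). It was also lost with RNA integrity as a covariate (-0.23, limma adjusted p = 0.24), with array weights (-0.32, limma adjusted p = 0.083), with only the groups compared fitted (limma adjusted p = 0.174) and with the replicate block (-0.34, limma adjusted p = 0.0894). T cell markers were called in 1 of 19 cases under gapmer 1, higher, and in 4 under gapmer 3, 2 of them higher. Tcf7 differed by -0.05 and -0.04 and did not pass.

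Further members were called under 1 gapmer, and whether the gapmers differ in them was not tested. Under gapmer 1 Wnt6 lay at 6.48, 6.44, 6.53, 6.89 and 6.68 in bleomycin lungs, against 6.32, 6.14 and 6.27 in PBS lungs (0.36, limma adjusted p = 0.0332), and Lgr5 rose by 0.28 (limma adjusted p = 0.0326). Under gapmer 3 Dkk2 rose by 0.80, while Wnt1 (-0.85), Fzd4 (-0.48), Wnt2 (-0.46) and Fzd8 (-0.44) fell, with limma adjusted p between 0.00193 and 0.039. Fzd4 lay at 11.45, 11.36, 11.83, 11.42 and 11.35 in bleomycin and 11.95, 12.07 and 11.88 in PBS lungs with gapmer 3, without overlap. RNA integrity as a covariate also ended the gapmer 1 calls of Wnt6 and Lgr5 (limma adjusted p = 0.186 and 0.0659), and Wnt2 averaged 6.08 in gapmer 3 bleomycin lungs, under the dim line. With any 1 array left out, only Sfrp1 held under gapmer 1, and Sfrp1, Wnt10a, Rspo1, Fzd1, Fzd8, Lef1 and Wnt2 held under gapmer 3. Dkk2 and Fzd4 under gapmer 3 did not pass without a single array each (limma adjusted p = 0.0521 and 0.0588), gapmer 3 PBS replicate 3 for Dkk2 and replicate 2 for Fzd4.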

How the data were processed

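RNA from whole mouse lungs was measured on 24 one-colour Agilent arrays. The deposited values are log2 intensities. Their near-equal array medians (6.48 to 6.50) show between-array normalisation by the authors, and limma is named, without a version, per the submitters' processing notes. Background correction is not given in the sources used here, and the number of arrays limits the precision. RNA integrity numbers ran from 8.5 to 10.0 per the labels. Of 62976 features 31465 had 1 gene symbol and 31511 none, and the brightest feature of each of 20728 genes was used.

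All groups entered 1 limma fit (limma 3.58.1, R 4.3.3) of 6 group means, with two-sided tests and Benjamini-Hochberg adjustment over all genes. Tables and plots used Python 3.11.15, pandas 2.3.3, NumPy 2.4.6 and matplotlib 3.10.9. The code was tested on simulated data with planted changes. Over the comparisons simulated, 70.1% to 86.6% of 1.5-fold changes were recovered, and 3.3% to 8.5% of calls were false. Few genes were changed (67 of 20728 by 1.5-fold), in independent normal noise, whereas 33.8% of genes were called for bleomycin in the data. Both shares depend on such settings. Interactions, gapmer 3 against gapmer 1 and bleomycin within a Dnm3os gapmer were not simulated. Members and lists were chosen with earlier results of these data known. Values per sample are given for up to 8 called members with the largest difference per comparison and for Axin2, Lef1, Tcf7, Lgr5, Lgr6, Znrf3, Rnf43, Notum and Wif1. From the other pathway genes up to 8 called per comparison are named, and from each cell type list up to 3. Alternatives covered normalisation, features, dim genes, variance, weights, groups fitted, RNA integrity, a replicate block and single arrays left out. Deviations of same-numbered arrays correlated above 0.1 in every pair only for gapmer 1 against control in PBS lungs (0.103, 0.189 and 0.121), where the pairing comes from the label numbers.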

Additional observations from a re-analysis of the deposited data

Results flagged for a closer look

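In groups of 5 arrays, 17 of 156 gene and group combinations had 1 array far from the other 4, where chance gives about 1 in 20. The widest gap was Rspo4 at 17.49 in bleomycin control replicate 1, against 5.75 to 5.90 in the others. In bleomycin control lungs Dkk1 stood high in replicate 2 (7.23), Lrp5 (10.02) and Wnt10b (7.45) high and Wnt5a (9.42) low in replicate 5, and Wnt7b low in replicate 4 (6.47). In gapmer 1 bleomycin lungs Dkk4 stood high in replicate 1 (6.00), Lef1 high in replicate 3 (10.29), Fzd9 high (6.64) and Rnf43 low (10.26) in replicate 4, and Lgr6 low in replicate 5 (6.57). In gapmer 3 bleomycin lungs replicate 3 was high in Fzd4 (11.83) and Lrp5 (10.13) and low in Fzd2 (10.80), Wnt10a (7.61) and Wnt6 (6.21), and replicate 2 was high in Wnt3 (6.04).

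The bleomycin response differed between gapmer and control lungs, by the limma interaction term at an adjusted p under 0.05, in 9 members with gapmer 1 and 5 with gapmer 3. With gapmer 1 the log2 differences of response were -1.98 for Wnt10a, -0.71 for Lef1, -0.98 for Sfrp1, -0.77 for Tcf7, -0.87 for Sfrp4, -0.90 for Dkk2, 0.50 for Lgr5, 0.63 for Rnf43 and 0.57 for Wnt9a. With gapmer 3 they were -1.49 for Wnt10a, -0.82 for Lef1, -1.04 for Sfrp1, 0.62 for Rnf43 and 0.62 for Wnt9a. Both sets use the same control arrays. With gapmer 1 the values of Wnt10a, Lgr5, Sfrp4, Dkk2 and Wnt9a also hold differences between PBS groups, given above.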

How the results depend on the processing

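Named calls were repeated 2786 times over 82 calls: 2516 stayed on the same side of the threshold, 270 did not pass and 0 turned their direction. Many repeats could not turn a direction. Leaving out an array outside the groups compared, or changing only the variance estimate, leaves the difference as it was. With single arrays left out, the members called for bleomycin ranged from 17 to 27 (25 with all arrays), for gapmer 1 in bleomycin lungs from 7 to 14 (11), for gapmer 3 in bleomycin lungs from 9 to 13 (11), for gapmer 1 in PBS lungs from 0 to 3 (2), for the difference of response from 3 to 12 (9) with gapmer 1 and 1 to 7 (5) with gapmer 3, and for bleomycin within gapmer 1 from 2 to 12 (8) and within gapmer 3 from 8 to 13 (11). The 7 for gapmer 1 came without bleomycin control replicate 2 or gapmer 1 replicate 3. The lowest counts of the differences of response came without PBS control replicate 1 for gapmer 1, and without bleomycin control replicate 2 or 4, PBS control replicate 1 or 3 or gapmer 3 PBS replicate 1 for gapmer 3. Within gapmer 1 the lowest came without gapmer 1 PBS replicate 1. Array weights gave 17 calls for gapmer 3 in bleomycin lungs, 4 for gapmer 1 in PBS lungs and 9 for the gapmer 3 difference of response. The variance trend and robust variance each gave 1 for gapmer 1 in PBS lungs, and fitting only the groups compared gave 0 there and 2 for bleomycin within gapmer 1. RNA integrity as a covariate gave 1 for the gapmer 3 difference of response (Lef1) and 1 for bleomycin within gapmer 1 (Sfrp1). The cause was not tested.

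With the replicate block the counts were 25 for bleomycin, 13 for each gapmer in bleomycin lungs, 3 for gapmer 1 in PBS lungs (Wnt10a added), 10 and 6 for the differences of response, and 7 and 13 for bleomycin within gapmers 1 and 3. The block ended the calls of Wnt2b for bleomycin (-0.23, limma adjusted p = 0.0774) and, within gapmer 1, of Wnt6 (0.31, limma adjusted p = 0.0675) and Lef1 (-0.34, limma adjusted p = 0.0894). In every comparison the same-numbered samples share only a number in the labels. Axin2, not called for bleomycin, was called with 3 of 10 alternatives, the replicate block among them, with limma adjusted p over all its alternatives between 0.00102 and 0.434. Leaving out dim genes gives no value for the 8 dim members. The comparisons of bleomycin with PBS within each gapmer, and their alternatives, were chosen after seeing the data.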
